A study of Mus musculus with 4 samples.

Results

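Genes that steer lymphocytes between blood, lymphoid organs and tissue were examined in immune cells of the mouse lung. The members are 9 genes, chosen by symbol among the 31053 genes listed in the files, and all 9 were found: Ccr7, S1pr1, Klf2, Cxcr3, Cxcr6, Ccr4, Ccr8, Cxcr4 and Itgae. The cells came from the study of the intraflagellar transport gene Ift20 in papain-induced airway inflammation, which asked how its loss in T cells bears on that inflammation. C57BL/6 mice that all carried floxed Ift20 alleles were compared without a Cre driver (Ift20 f/f, called WT) and with CD4-cre (Ift20 f/f CD4 cre, called KO). The CD4 promoter drives Cre in developing T cells, so that CD8 T cells are targeted as well, while B cells, innate lymphoid cells and myeloid cells should keep the gene. Papain, a protease allergen, was given into the nose at 25 µg on 3 days in a row and again on day 14, and the lungs were taken on day 15. Controls were given DPBS (buffered saline) instead. Live cells positive for CD45.2, a marker of blood-derived cells, were sorted, and a single 3′ library of single-cell RNA was made for each genotype after DPBS and after papain, 4 in all, called DPBS WT, Papain WT, DPBS KO and Papain KO. The mice were males aged 5 to 10 weeks, and the labels do not say how many gave cells to a library. With 1 library per group there is no replicate check on any difference below, and no test between groups was run.

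Naive T and B cells enter lymph nodes along gradients of the ligands of CCR7 and leave them through S1PR1, the receptor for sphingosine 1-phosphate in blood and lymph. KLF2 is a transcription factor that keeps S1pr1 and other recirculation genes on in resting lymphocytes, and its level drops when the antigen receptor is engaged. Activated and memory cells instead carry receptors that lead into inflamed tissue (CXCR3, CXCR6, CCR4, CCR8) or hold them there, such as CD103, the αE integrin encoded by Itgae, which binds E-cadherin on epithelium.

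The promoters of 4 members are shown because Klf2 and the group of Cxcr6, Ccr4 and Ccr8 had opposite differences between genotypes in CD4 T cells after papain, as described below. RefSeq sequence of build GRCm38.p6 was at hand for 6 of the 9 members and covers 250 bases before to 50 bases after the start of the gene in RefSeq, 5′ to 3′ on the gene's strand. Capitals mark CACCC or its reverse complement GGGTG, the core of elements bound by KLF factors, and GGGCGG or CCGCCC, the GC box.
Klf2 promoter, chr8:72318812-72319111, + strand: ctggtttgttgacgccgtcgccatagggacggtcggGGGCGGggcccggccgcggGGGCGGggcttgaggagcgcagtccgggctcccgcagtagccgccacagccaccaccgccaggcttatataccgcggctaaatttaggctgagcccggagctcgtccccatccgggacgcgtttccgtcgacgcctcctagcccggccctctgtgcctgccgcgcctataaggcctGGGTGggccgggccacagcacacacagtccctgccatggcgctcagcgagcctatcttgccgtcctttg
Cxcr6 promoter, chr9:123806227-123806526, + strand: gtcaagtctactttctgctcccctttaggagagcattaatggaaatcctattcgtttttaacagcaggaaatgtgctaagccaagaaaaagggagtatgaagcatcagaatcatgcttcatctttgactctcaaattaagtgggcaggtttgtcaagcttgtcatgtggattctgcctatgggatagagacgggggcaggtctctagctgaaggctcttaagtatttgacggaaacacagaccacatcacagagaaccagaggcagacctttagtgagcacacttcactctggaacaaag
Ccr4 promoter, chr9:114496495-114496794, - strand: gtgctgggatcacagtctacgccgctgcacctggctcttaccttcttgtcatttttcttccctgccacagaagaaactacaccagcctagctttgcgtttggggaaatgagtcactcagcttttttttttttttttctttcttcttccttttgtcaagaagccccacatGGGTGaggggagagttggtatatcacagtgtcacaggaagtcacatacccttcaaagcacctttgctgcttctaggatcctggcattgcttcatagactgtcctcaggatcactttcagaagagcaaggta
Ccr8 promoter, chr9:120091883-120092182, + strand: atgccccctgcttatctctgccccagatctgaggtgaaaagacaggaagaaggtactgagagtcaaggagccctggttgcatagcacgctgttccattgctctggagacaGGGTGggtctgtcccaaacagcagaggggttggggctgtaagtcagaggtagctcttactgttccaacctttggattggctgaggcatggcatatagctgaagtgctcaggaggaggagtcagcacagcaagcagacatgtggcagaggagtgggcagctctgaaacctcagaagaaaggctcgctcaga
Both motifs are present in the Klf2 promoter, with 1 CACCC match and 2 GC boxes, and neither in that of Cxcr6. The Ccr4 and Ccr8 promoters each held 1 CACCC match and no GC box. Of 32851 mouse promoters of the same length, 57.52% held CACCC on either strand and 35.66% the GC box, so these matches describe the windows and no more. The bases G and C made up 69.3% of the Klf2 window and 44.3% of that of Cxcr6.

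On GRCm38 (GENCODE M21), Ccr7 lies at chr11:99144196-99155077, S1pr1 at chr3:115710433-115715072, Klf2 at chr8:72319033-72321656, Cxcr3 at chrX:101731535-101734269, Cxcr4 at chr1:128588199-128592293 and Itgae at chr11:73090583-73147446. Cxcr6 at chr9:123806475-123811760, Ccr4 at chr9:114490316-114504916 and Ccr8 at chr9:120092114-120094906 share chromosome 9. The Ccr4 window printed above lies inside this span, which runs further upstream in GENCODE than the RefSeq start used for the window, so it does not cover the 5′ end of the GENCODE gene. Cxcr6 overlaps Fyco1 and Itgae overlaps Haspin, each on the opposite strand. The counting strand is not stated, so their reads may not be fully told apart.

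The files held 5863 to 8552 barcodes and 53854420 to 75675956 unique molecular identifiers (UMIs) per library. After filtering, 25909 cells were kept, with medians of 5842 to 6681 UMIs per cell, and the libraries shared 7 to 16 barcodes in pairs, at most 0.222% of the smaller library. Expression is given as UMIs of a gene per 1000000 UMIs of the cells of a class (CPM), and ratios as log2 of the CPM of 1 library over another, with exact 95% intervals in parentheses that cover counting error only. Classes are clusters named from marker genes that exclude the 9 members. At least 70.9% of the cells in each cluster taken as T cells had a Cd3e UMI, and at least 66.7% in each T sub-cluster, against 1.20% to 4.64% in the B cell clusters and 5.78% in the cluster of type 2 innate lymphoid cells (ILC2). CD4 T cells numbered 1268 (WT) and 879 (KO) after DPBS and 1420 (WT) and 941 (KO) after papain, and CD8 T cells 1092, 667, 670 and 755 in that order, which is kept below wherever 4 values are listed. Ift20 stood at 56.7 CPM (WT) and 21.2 CPM (KO) after DPBS and 59.3 CPM (WT) and 18.1 CPM (KO) after papain in CD4 T cells, and log2 KO over WT was -1.42 (-1.73 to -1.12) after DPBS and -1.71 (-2.01 to -1.43) after papain. In CD8 T cells these ratios were -1.79 and -1.64, so the genotype labels matched the Ift20 level in both T cell classes. A 3′ library counts the end of the transcript, so the remaining UMIs do not measure the deletion itself.

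Across cell classes the members differed in where they stood highest and in how widely they were found. Ccr7 was highest in mature dendritic cells (DC), at 3871 CPM (WT) and 4635 CPM (KO) after DPBS and 3803 CPM (WT) and 3608 CPM (KO) after papain, which use the receptor to travel to lymph nodes. Mature DC numbered only 20, 12, 49 and 10 cells in the same order of libraries. B cells came next, at 675, 996, 713 and 778 CPM in the same order of libraries, and both steps of this order lay outside the counting intervals in all 4 libraries. CD8 T cells held 517, 830.4, 653 and 670.2 CPM, and the intervals of CD4 and CD8 T cells overlapped in DPBS WT and Papain KO. Natural killer (NK) cells, at 9.39 to 39.2 CPM, and ILC2, at 9.40 to 21.01 CPM, were at the level of cells that lack the receptor. Thinned to 1000 UMIs per cell, 1.14% to 2.73% of NK cells and 0.854% to 1.69% of ILC2 had a Ccr7 UMI, against 0.676% to 1.94% of alveolar macrophages and 1.25% to 2.53% of neutrophils. In CD4 T cells the thinned share was 37.7%, 51.7%, 36.3% and 43.3% and the unthinned share 71.5% to 88.4%.

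S1pr1 was highest in CD4 T cells, at 257 CPM (WT) and 352 CPM (KO) after DPBS and 269.6 CPM (WT) and 283 CPM (KO) after papain, and in gamma-delta T cells, at 223, 353, 348 and 434 CPM, which numbered 23 to 33 per library. The intervals of these classes overlapped in all libraries but Papain KO, where gamma-delta T cells stood higher. B cells held 179 to 230.3 CPM and CD8 T cells 185 to 225 CPM. NK cells had 32.1 to 56.7 CPM and ILC2 0 to 17.99 CPM, with at most 10 UMIs in a library. Thinned shares of cells with a UMI were 22.4%, 28.9%, 24.2% and 24.5% in CD4 T cells and 0.172% to 0.682% in alveolar macrophages.

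Klf2 was broadly expressed. Its level was 2273 CPM (WT) and 2738 CPM (KO) after DPBS and 2219.7 CPM (WT) and 2725 CPM (KO) after papain in B cells, the highest class in all libraries but Papain KO, with intervals that overlapped those of gamma-delta T cells and NK cells in Papain WT. In Papain KO gamma-delta T cells held 3355 CPM. The level in CD4 T cells was 1314 CPM (WT) and 1771 CPM (KO) after DPBS and 1283 CPM (WT) and 2048 CPM (KO) after papain, in CD8 T cells 1213, 1521, 1486 and 1828 CPM, and in NK cells 1592, 1411, 2074 and 1587 CPM. ILC2 were far lower, at 75.2, 182, 112 and 439 CPM. Alveolar macrophages, at 206 to 302 CPM, and neutrophils, at 853 to 1262 CPM, expressed the gene too and are no measure of free RNA for it.

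The receptors of inflamed tissue had narrower patterns. Cxcr3, the receptor for CXCL9 and CXCL10, was highest in a T cell cluster led by Xcl1, Klra7 and Klrk1. This class, named T with NK receptor genes, held 130.4 CPM (WT) and 114 CPM (KO) after DPBS and 102 CPM (WT) and 123 CPM (KO) after papain. No other class reached this level within counting error in any library. CD8 T cells held 23.4 to 48.3 CPM, CD4 T cells 18.8 to 37.03 CPM and NK cells 22.1 to 49.3 CPM. No Cxcr3 UMI was found in ILC2 of any library, which allows up to 9.40 CPM in DPBS WT and 6.62 CPM in Papain KO (3 UMIs per library).

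Cxcr6, the receptor for CXCL16, was highest in ILC2 in all 4 libraries, at 222 CPM (WT) and 347 CPM (KO) after DPBS and 293 CPM (WT) and 316 CPM (KO) after papain. The T cells led by Xcl1, Klra7 and Klrk1 followed at 88.7, 101, 88.6 and 149 CPM. Their intervals overlapped those of gamma-delta T cells in DPBS WT and of CD4 T cells in Papain WT. CD8 T cells stayed between 26.4 and 39.7 CPM. CD4 T cells ranged more widely, at 12.3 CPM (WT) and 5.66 CPM (KO) after DPBS and 75.6 CPM (WT) and 27.3 CPM (KO) after papain. Thinned shares of CD4 T cells with a Cxcr6 UMI were 0.585%, 0.246%, 4.16% and 1.58%, against at most 0.0819% in alveolar macrophages.

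Ccr8, the receptor for CCL1, was likewise highest in ILC2, at 62.6 CPM (WT) and 98.04 CPM (KO) after DPBS and 48.6 CPM (WT) and 52.96 CPM (KO) after papain, although these levels rest on only 20, 28, 27 and 24 UMIs. CD4 T cells had 0.909, 2.37, 8.12 and 2.32 CPM. CD8 T cells had at most 1 Ccr8 UMI per library. Ccr4, the receptor for CCL17 and CCL22, was found in ILC2, at 21.9, 10.5, 16.2 and 15.4 CPM, and in CD4 T cells, at 6.75 CPM (WT) and 5.48 CPM (KO) after DPBS and 34.8 CPM (WT) and 11.4 CPM (KO) after papain. Their intervals overlapped in DPBS WT, DPBS KO and Papain KO, and CD4 T cells stood above ILC2 in Papain WT. Ccr4 had no UMI in NK cells or mature DC and 4, 2, 8 and 4 UMIs in CD8 T cells.

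Cxcr4, the receptor for CXCL12, followed another order. Neutrophils were highest, at 1225 CPM (WT) and 1105 CPM (KO) after DPBS and 1034 CPM (WT) and 974 CPM (KO) after papain, ahead of monocytes at 327 to 368 CPM and B cells at 225 to 286 CPM, with no overlap of intervals among these 3 classes in any library. CD4 T cells, at 79.98 CPM (WT) and 82.7 CPM (KO) after DPBS and 116 CPM (WT) and 96.8 CPM (KO) after papain, and CD8 T cells, at 67.8, 68.1, 98.9 and 82.7 CPM, were among the lower classes. Itgae was highest in conventional DC, at 401 CPM (WT) and 315 CPM (KO) after DPBS and 316 CPM (WT) and 340.1 CPM (KO) after papain, a subset of which is known by CD103. This class was a single cluster of 162 cells with Clec9a, Cadm1 and Cd207 among its leading genes. A cluster of 524 cells with Mgl2, Cd209a and C1qa among its leading genes was left unnamed and is not part of it. CD8 T cells held 53.3, 44.7, 40.8 and 41.8 CPM, and CD4 T cells 7.01 CPM (WT) and 7.12 CPM (KO) after DPBS and 32.7 CPM (WT) and 11.9 CPM (KO) after papain.

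**Figure D1:**
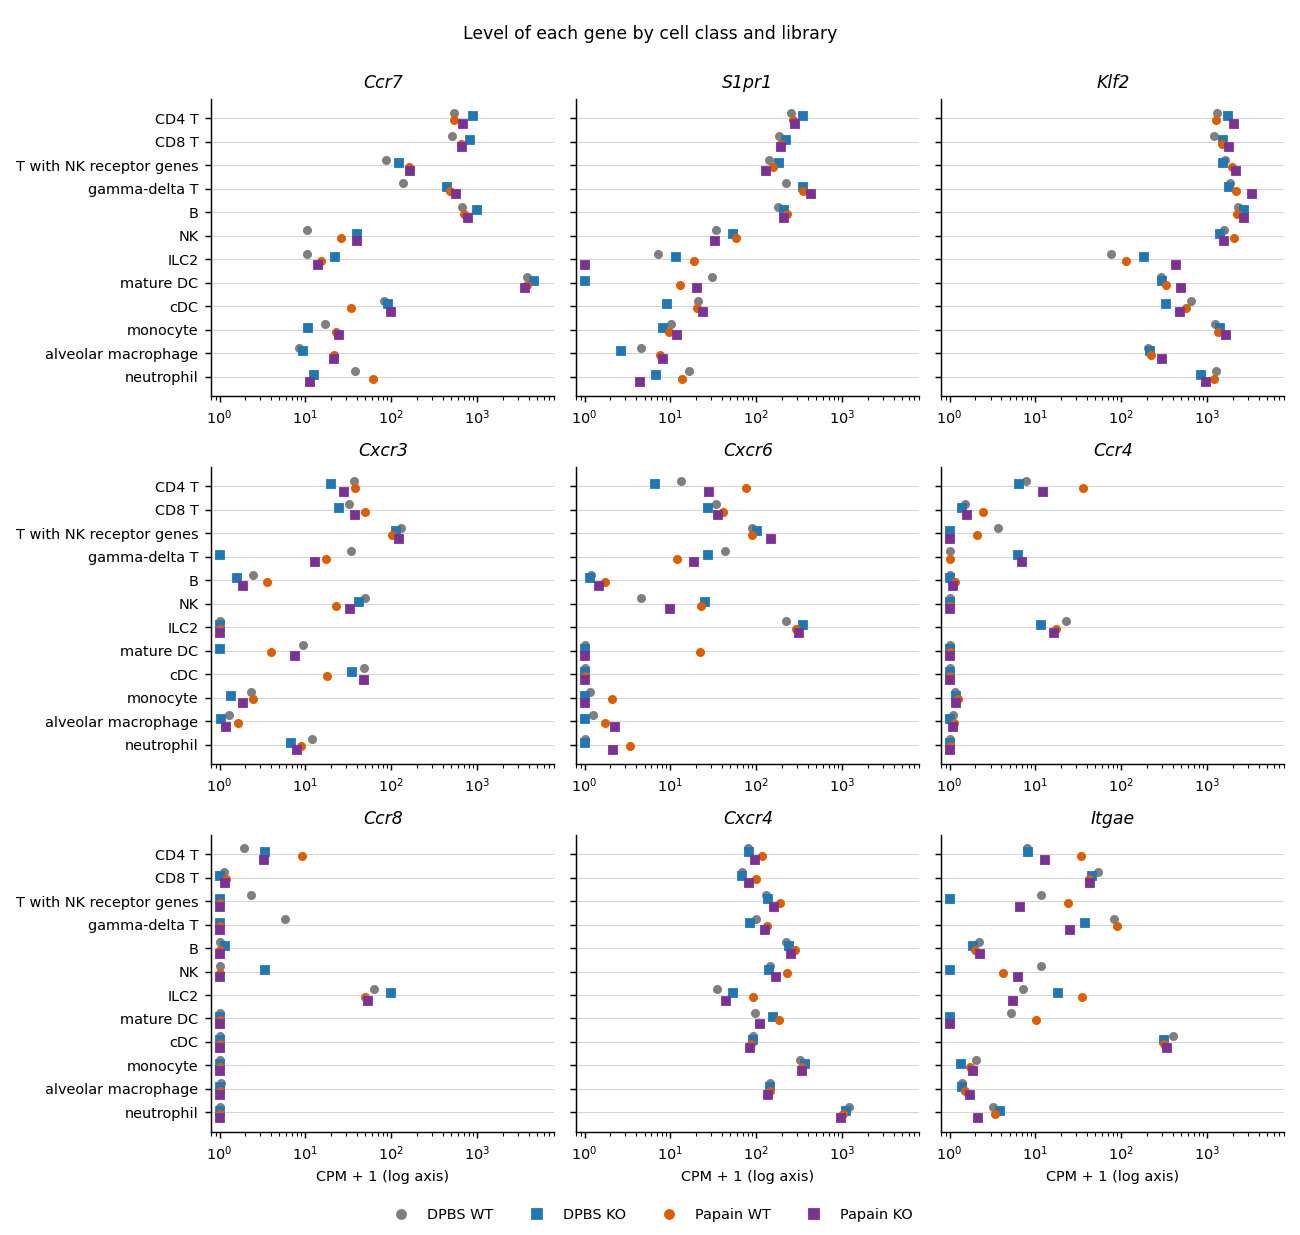
Level of each member in 12 cell classes, 1 panel per gene. The horizontal axis is CPM + 1 on a log scale; circles are WT and squares KO libraries, in grey and blue after DPBS and in orange and purple after papain. Ccr7 stood highest in mature DC, Cxcr6 and Ccr8 in ILC2, Cxcr4 in neutrophils and Itgae in conventional DC in all 4 libraries.

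Within CD4 T cells the members marked different states. A second clustering of the T cells, again without the members, separated naive-type cells, regulatory cells, type 17 cells, dividing cells and T sub-cluster 6, a sub-cluster of non-naive cells in which Ccl5 and Gzmk were among the 10 leading genes. Naive-type cells carried nearly none of the tissue receptors. Their Cxcr3 level was 0.369 to 0.918 CPM, Ccr4 0 to 0.734 CPM, Cxcr6 0 to 2.02 CPM and Itgae 0.426 to 0.918 CPM, each from at most 11 UMIs in a library. The same cells held Ccr7 at 564, 912, 740.5 and 722 CPM and S1pr1 at 257, 328, 305 and 280.3 CPM.

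Regulatory cells carried most of the Itgae of CD4 T cells. Their Itgae level was 71.4 CPM (WT) and 105 CPM (KO) after DPBS and 240.5 CPM (WT) and 114 CPM (KO) after papain, and they held 62.96%, 84.6%, 88.2% and 75.3% of all Itgae UMIs of CD4 T cells in the libraries, in the same order. They also held Ccr8 at 2.10, 9.52, 33.02 and 19.6 CPM, from 1, 3, 39 and 10 UMIs. Among CD8 T cells it was instead the naive-type cells that held Itgae, at 68.2, 59.7, 67.7 and 55.2 CPM and 87.2%, 88.6%, 82.5% and 85.4% of the Itgae UMIs of that lineage. Memory CD8 T cells had 4.28 to 6.38 CPM.

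Type 17 CD4 cells were rare, with 7 (WT) and 3 (KO) cells after DPBS and 47 (WT) and 26 (KO) after papain, but had high levels of both Cxcr6 and Ccr4. After papain their Cxcr6 level was 296 CPM in WT and 361 CPM in KO, and their Ccr4 level 220.2 CPM and 174 CPM. Between the papain libraries KO relative to WT stood at a log2 ratio of 0.28 (-0.15 to 0.71) for Cxcr6 and -0.34 (-0.93 to 0.23) for Ccr4 in these cells, so that both intervals held 0. CD4 cells of T sub-cluster 6 had Cxcr6 at 46.9, 0, 232 and 75.2 CPM. Dividing CD4 cells held most Cxcr3 UMIs of CD4 T cells in DPBS WT, 198 of 274, or 72.3%, from 23 cells.

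**Figure D2:**
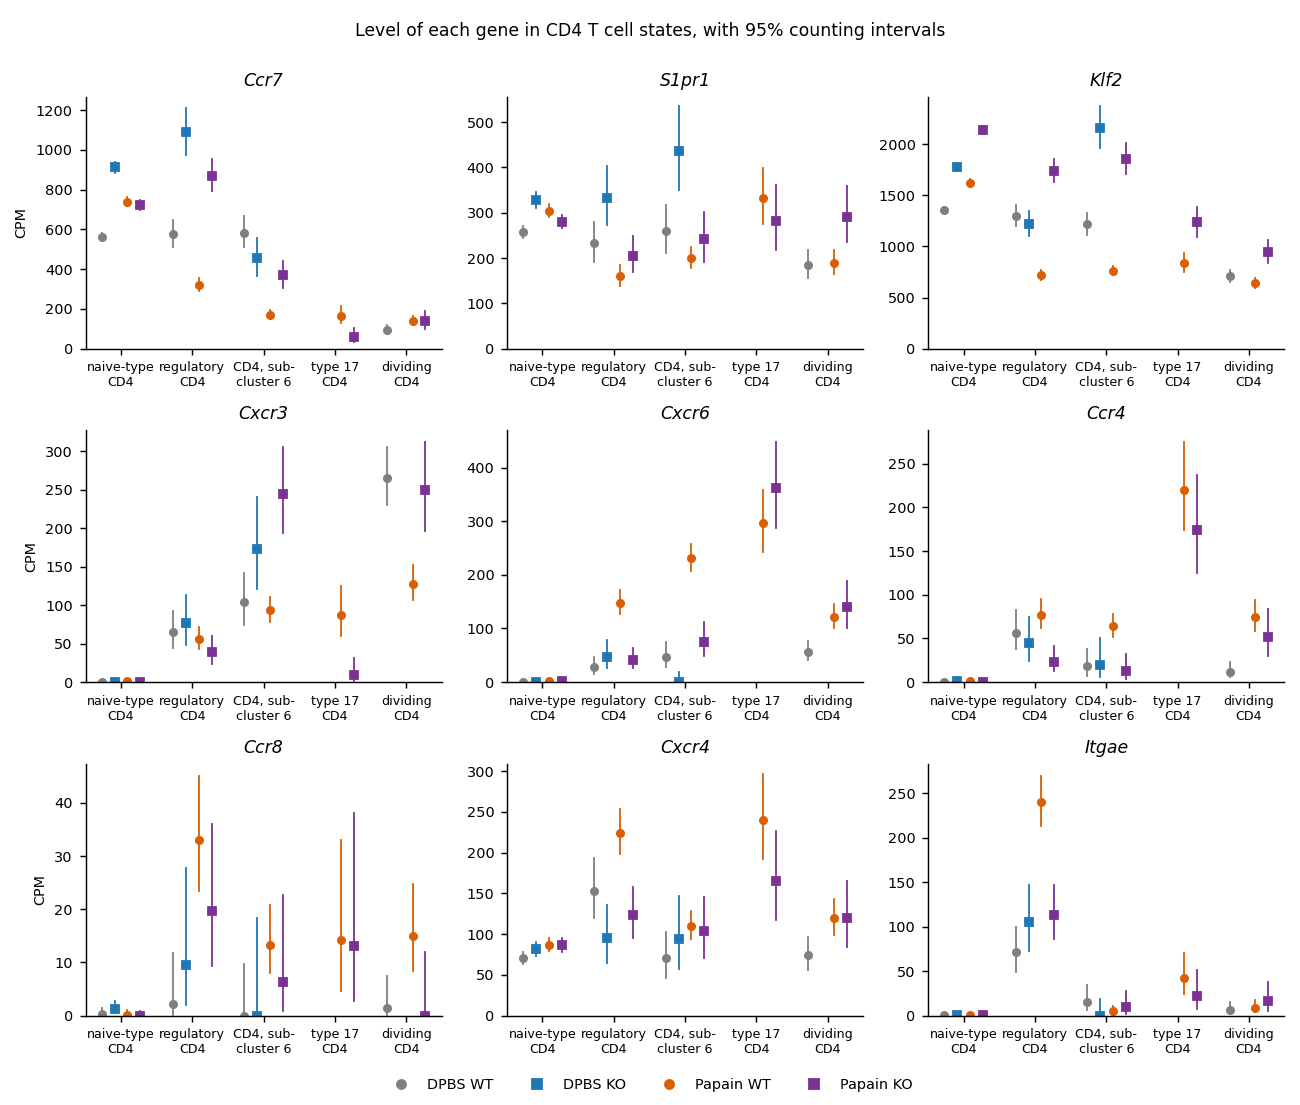
CPM of each member in 5 CD4 T cell states, with bars for 95% counting intervals. Each state shows the libraries with at least 10 cells; the tissue receptors are near 0 in naive-type cells, and Itgae is highest in regulatory cells.

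The mix of states differed between the libraries. After DPBS, naive-type cells made up 78.2% (75.9 to 80.5) of WT and 79.1% (76.2 to 81.7) of KO CD4 T cells, and after papain 64.4% (61.8 to 66.9) and 77.4% (74.6 to 80.00). Papain WT alone stood apart, with a share below the other libraries by more than the counting intervals. CD4 cells of T sub-cluster 6 made up 3.47% (2.53 to 4.63), 3.19% (2.13 to 4.57), 12.6% (10.9 to 14.4) and 4.46% (3.24 to 5.99) in the same order, and regulatory cells 5.44% (4.26 to 6.84), 4.89% (3.56 to 6.53), 10.4% (8.88 to 12.1) and 6.70% (5.18 to 8.48). Among CD8 T cells, naive-type cells likewise made up 70.8%, 72.0%, 55.8% and 71.1% and memory cells 15.7%, 16.3%, 28.1% and 17.1%. Ratios over all cells of a lineage are therefore also given at a common mix of states. In it each state weighs by its share of the lineage's UMIs in DPBS WT.

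Papain was set against DPBS within each genotype first. In WT CD4 T cells, 4 of the 9 members were past 1.5-fold higher and 0 lower, where all genes with at least 50 UMIs in the 2 libraries gave 10.8% higher and 1.64% lower. The 4 were Cxcr6, Ccr8, Ccr4 and Itgae. Cxcr6 had 95, 31, 745 and 177 UMIs in the 4 libraries, and its log2 ratio of papain to DPBS in WT was 2.62 (2.31 to 2.94). Ccr8 stood at 3.16 (2.05 to 4.52), from 7 UMIs in DPBS and 80 in papain, so that it reached the limit of 50 UMIs only through Papain WT, here and for KO over WT in papain, and was below it in the other contrasts. Ccr4 was at 2.37 (1.94 to 2.82) and Itgae at 2.22 (1.80 to 2.66). The recirculation genes were close to equal in this contrast, at -0.0089 (-0.068 to 0.050) for Ccr7, 0.067 (-0.017 to 0.15) for S1pr1 and -0.035 (-0.073 to 0.0029) for Klf2. Cxcr3 was at 0.058 and Cxcr4 at 0.54 (0.40 to 0.68). The median was 0.54 over the members tested and 0.11 over all genes tested.

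In KO CD4 T cells the same contrast put 3 of 8 members tested past 1.5-fold higher and 0 lower, against 3.9% and 1.51% of all genes. Cxcr6 was at 2.27 (1.71 to 2.87), Ccr4 at 1.06 (0.43 to 1.72) and Itgae at 0.74 (0.17 to 1.33). At the DPBS WT mix of states these ratios were 1.12 for Cxcr6, 0.57 for Ccr4 and 0.22 for Itgae, so that only Cxcr6 stayed past 1.5-fold. Whether the response to papain differed between genotypes was not tested. Side by side, log2 papain over DPBS was 2.22 in WT and 0.74 in KO for Itgae, and 2.37 in WT and 1.06 in KO for Ccr4. Ccr7 was within 1.5-fold, at -0.40 (-0.46 to -0.34).

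CD8 T cells showed a smaller difference, in Cxcr3. It stood at 31.4 CPM (WT) and 23.4 CPM (KO) after DPBS and 48.3 CPM (WT) and 36.8 CPM (KO) after papain, which gave log2 papain over DPBS of 0.62 (0.37 to 0.88) between the WT libraries and 0.65 (0.34 to 0.98) between the KO libraries. It was the only member of the 7 tested past 1.5-fold in either genotype, against 8.46% of all genes in WT and 4.39% in KO. The log2 ratio lay close to the 1.5-fold limit and was below it in WT with TMM scaling factors, at 0.53. At the DPBS WT mix of CD8 states, Cxcr3 was at 0.051 in WT and 0.61 in KO. Cxcr4 was at 0.54 in WT CD8 T cells and 0.28 in KO, within 1.5-fold and near its value in CD4 T cells. In the T cells led by Xcl1, Klra7 and Klrk1, Ccr7 was at 0.89 (0.46 to 1.33) in WT and 0.42 (-0.053 to 0.91) in KO. In WT it was the 1 member of 6 tested past 1.5-fold higher, and 0 were lower, against 7.78% and 3.81% of all genes.

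Papain WT was also the library with the most non-naive CD4 T cells, so the contrast was repeated at the DPBS WT mix of states. At that common mix, log2 papain over DPBS in WT CD4 T cells was 1.81 for Cxcr6, 1.49 for Ccr4, 2.30 for Ccr8 and 1.41 for Itgae, each lower than in the pooled cells and each still past 1.5-fold. Cxcr3 went the other way, from 0.058 in the pooled cells to -0.73 at the common mix, past 1.5-fold lower, while it stood at 1.29 without dividing T cells. Within regulatory cells alone, the same contrast gave 2.44 (1.63 to 3.38) for Cxcr6 and 1.75 (1.24 to 2.31) for Itgae. Klf2 and Ccr7 were past 1.5-fold lower after papain in regulatory cells and sub-cluster 6 of WT and within 1.5-fold in naive-type cells. For this contrast all genes tested gave 15.8% higher and 4.79% lower in regulatory cells, and 20.8% and 5.95% in sub-cluster 6. Klf2 was at -0.84 (-0.99 to -0.69) in regulatory cells and -0.67 (-0.83 to -0.51) in CD4 cells of sub-cluster 6, but 0.26 (0.21 to 0.30) in naive-type cells. Ccr7 was at -0.85 (-1.08 to -0.62), -1.79 (-2.05 to -1.52) and 0.39 (0.32 to 0.46) in the same states. In dividing CD4 cells Klf2 was at -0.16 (-0.32 to 0.013) and Ccr7 at 0.60 (0.17 to 1.03), the latter from 69 UMIs after DPBS and 140 after papain.

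KO was next set against WT. After papain, 4 of the 9 members were past 1.5-fold lower in KO CD4 T cells and 1 was higher, against 10.8% lower and 1.47% higher among all genes tested. Lower were Ccr8 at -1.81 (-2.71 to -1.003), Ccr4 at -1.61 (-1.99 to -1.24), Cxcr6 at -1.47 (-1.71 to -1.23) and Itgae at -1.46 (-1.84 to -1.10). Those are the genes that were higher in papain than in DPBS in WT, and both contrasts share the Papain WT library. Higher in KO was Klf2, at 0.67 (0.64 to 0.71). Ccr7 was at 0.34 (0.28 to 0.39) and S1pr1 at 0.071 (-0.015 to 0.16), both within 1.5-fold. Cxcr3 was at -0.42 (-0.69 to -0.16) and Cxcr4 at -0.26 (-0.41 to -0.12). The median over all genes was -0.14 in this contrast. With TMM scaling factors, which move all genes of a contrast alike, Klf2 was at 0.81 and Cxcr6 at -1.34.

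After DPBS, 1 of 8 members tested was past 1.5-fold higher in KO CD4 T cells and 2 were lower, against 3.2% higher and 6.5% lower among all genes. Ccr7 was higher, at 0.73 (0.67 to 0.79), with 4176 UMIs in WT and 4922 in KO. Klf2, at 0.43 (0.39 to 0.47), and S1pr1, at 0.45 (0.36 to 0.54), lay on the same side but within 1.5-fold. Cxcr6 was lower, at -1.12 (-1.76 to -0.53), and so was Cxcr3, at -0.92 (-1.26 to -0.59). Without the dividing T cells, Cxcr3 was at 0.11, on the other side of 0. Ccr4, Itgae and Cxcr4 were at -0.30, 0.022 and 0.049, with intervals that held 0.

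B cells, which should keep Ift20, also differed between the genotypes, with pooled values in the same direction for Ccr7 and Klf2. Their Ift20 ratio of KO to WT was -0.35 (-0.58 to -0.11) after DPBS, from 43.9 CPM (WT) and 34.5 CPM (KO). After papain it was 0.048 (-0.15 to 0.24), and both ratios were within 1.5-fold. In B cells, log2 KO over WT for Ccr7 was 0.56 (0.51 to 0.61) after DPBS and 0.13 (0.084 to 0.17) after papain, and for Klf2 0.27 (0.24 to 0.30) and 0.30 (0.27 to 0.32). In CD8 T cells, which are targets of CD4-cre, Ccr7 was at 0.68 (0.62 to 0.75) and 0.037 (-0.026 to 0.10) and Klf2 at 0.33 (0.28 to 0.37) and 0.30 (0.26 to 0.34). The Ccr7 ratios of CD4 T, CD8 T and B cells in DPBS thus lay between 0.56 and 0.73. The genotype and the library cannot be told apart. None of the 4 members tested in B cells was past 1.5-fold in any contrast, against 5.96% of all genes for KO over WT in DPBS, 5.54% for KO over WT in papain, 8.46% for papain over DPBS in WT and 3.67% in KO. B cells comprised 3 clusters with unlike ratios. In cluster 1, Ccr7 was at 0.86 (0.77 to 0.94) and Klf2 at 0.86 (0.82 to 0.90) in DPBS. Cluster 0 had Ccr7 at 0.085 (0.021 to 0.15) and Klf2 at -0.049 (-0.092 to -0.0058), and cluster 13 had Ccr7 at 0.24 (0.053 to 0.42) and Klf2 at -0.25 (-0.35 to -0.16). Cluster 1 made up 18.1% of all kept cells in DPBS WT and 7.97% in DPBS KO, and cluster 0 made up 10.1% and 17.8%. After papain, Ccr7 was at -0.030 (-0.11 to 0.049) in cluster 1 and -0.084 (-0.14 to -0.026) in cluster 0. In CD8 T cells, Ccr7 in DPBS was the 1 member of 7 past 1.5-fold for KO over WT, against 7.91% of all genes, and in papain there were 0 of 7, against 5.43%.

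**Figure D3:**
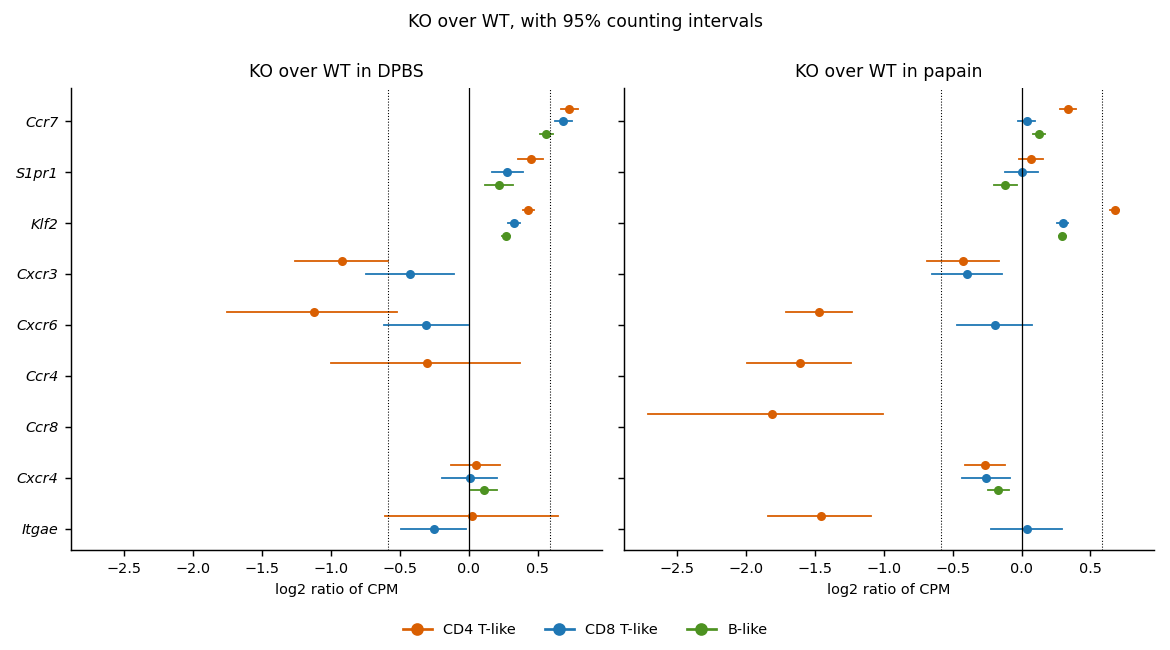
Log2 ratio of KO to WT for each member with at least 50 UMIs over the 2 libraries, in CD4 T, CD8 T and B cells, after DPBS and after papain. Bars are 95% counting intervals and dotted lines mark 1.5-fold; in CD4 T cells after papain, Ccr4, Ccr8, Cxcr6 and Itgae lie below and Klf2 above the lines, while Ccr7 and Klf2 lie above 0 in B cells as well.

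At the DPBS WT mix of CD4 states, log2 KO over WT after papain was -0.72 for Cxcr6, -0.73 for Itgae, -1.15 for Ccr4 and -1.55 for Ccr8. Each remained past 1.5-fold lower and was nearer 0 than in the pooled cells. Klf2 was at 0.48, now within 1.5-fold, and Ccr7 at 0.054. Cxcr3 changed sign, from -0.42 in the pooled cells to 0.87 at the common mix. After DPBS the common mix left Ccr7 at 0.63, while Cxcr6 moved to -0.036 and Cxcr3 to -0.089. Values at the common mix carry no interval and lean on few dividing cells. The 10 dividing CD4 cells of Papain KO held 77 of 179 Cxcr3 UMIs of CD4 T cells. In DPBS KO, 8 dividing cells held 41 of 103 Cxcr3 and 13 of 31 Cxcr6 UMIs. Type 17 cells are left out of this mix, because DPBS KO had 3 of them. In Papain KO they held 46.9% of the Cxcr6 and 54.1% of the Ccr4 UMIs of CD4 T cells. In Papain WT these shares were 14.1% and 22.7%, so the pooled and common-mix ratios cover different cells.

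**Figure D4:**
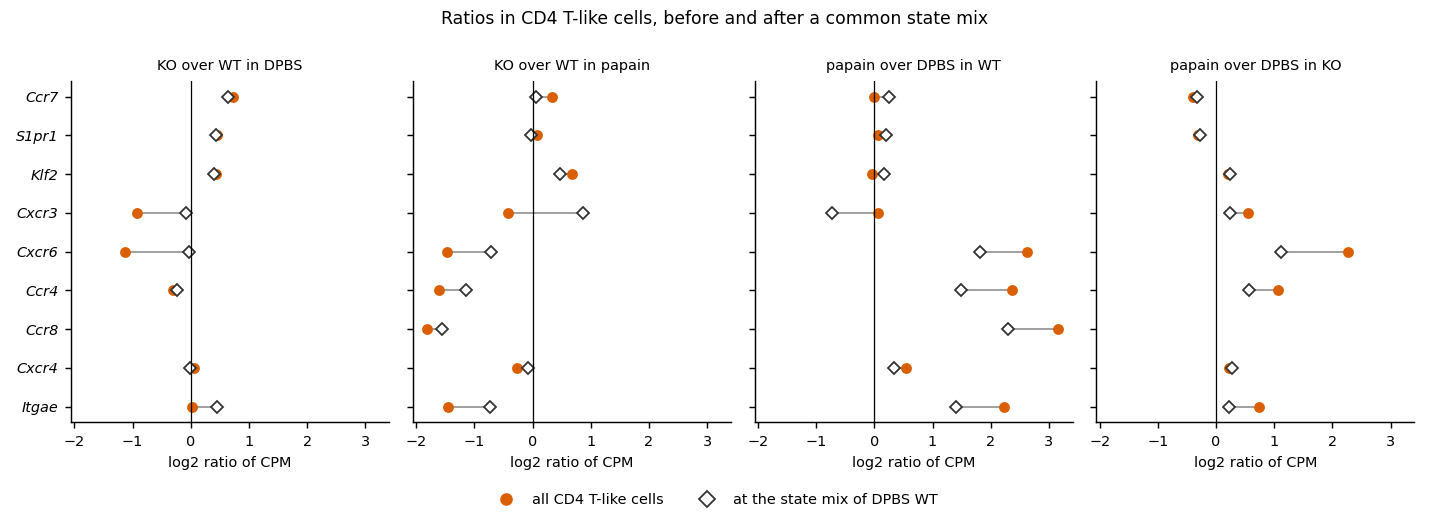
Log2 ratios of the members in CD4 T cells in the 4 contrasts, over all CD4 T cells and at the DPBS WT mix of CD4 states. Cxcr6, Ccr4, Ccr8 and Itgae stay higher in papain WT than in DPBS WT at the common mix, with smaller ratios, while Cxcr3 falls to -0.73 there and changes sign in papain KO over WT.

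After papain, Klf2 and Ccr7 had larger KO over WT ratios in regulatory cells and CD4 cells of sub-cluster 6 than in naive-type cells. Cxcr6 and Ccr4, nearly absent from naive-type cells, were past 1.5-fold lower in KO in both of those states. In regulatory cells 2 of 8 members tested were higher and 4 lower, against 3.9% and 16.1% of all genes. In CD4 cells of sub-cluster 6, 3 of 7 were higher and 2 lower, against 7.21% and 14.8%. Cxcr6 and Ccr4 reached the UMI limit for testing only through Papain WT in both states. Regulatory cells of Papain WT and Papain KO held 175 and 21 UMIs of Cxcr6 and 91 and 12 of Ccr4. CD4 cells of sub-cluster 6 held 331 and 24 of Cxcr6 and 91 and 4 of Ccr4. The limit thus favoured a lower call for these genes, and their part of the counts is no comparison with all genes. In regulatory cells, Klf2 was at 1295 CPM (WT) and 1218 CPM (KO) after DPBS and 722 CPM (WT) and 1741 CPM (KO) after papain, a log2 KO over WT in papain of 1.27 (1.13 to 1.41), and Ccr7 at 577 CPM (WT) and 1088 CPM (KO) after DPBS and 320.0 CPM (WT) and 872 CPM (KO) after papain, a ratio of 1.45 (1.24 to 1.65). The Papain WT value was the lowest of the 4 libraries for both genes. Cxcr6 in the same cells was at -1.85 (-2.58 to -1.19), Ccr4 at -1.71 (-2.72 to -0.84) and Itgae at -1.08 (-1.52 to -0.67). Cxcr4 had log2 KO over WT of -0.69 (-1.35 to -0.056) after DPBS and -0.86 (-1.28 to -0.46) after papain, both past 1.5-fold lower. Regulatory cells numbered 69, 43, 148 and 63 in the 4 libraries.

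CD4 cells of T sub-cluster 6 gave like values after papain, with Klf2 at 1.28 (1.13 to 1.43), Ccr7 at 1.12 (0.79 to 1.45), Cxcr6 at -1.62 (-2.29 to -1.03) and Ccr4 at -2.35 (-4.25 to -0.94), the last from 4 UMIs in KO. Cxcr3 stood higher in KO there, at 1.38 (0.96 to 1.79). CD8 cells of the same sub-cluster, which are targets of CD4-cre too, had Klf2 at 0.34 (0.17 to 0.50), Ccr7 at 0.036 (-0.25 to 0.32) and Cxcr6 at 0.029 (-0.51 to 0.57). Dividing CD4 cells had Klf2 at 0.57 (0.37 to 0.77) and Ccr7 at -0.0055 (-0.53 to 0.50). In naive-type CD4 cells after papain, Ccr7 was at -0.036 (-0.10 to 0.031) and Klf2 at 0.40 (0.36 to 0.44), and in naive-type CD8 cells Ccr7 was at -0.0022 (-0.082 to 0.078) and Klf2 at 0.30 (0.25 to 0.36). After DPBS the Ccr7 ratios were 0.69 (0.62 to 0.76) in naive-type CD4 and 0.69 (0.62 to 0.77) in naive-type CD8 cells. Memory CD8 cells had Ccr7 at 0.93 (0.78 to 1.09), Cxcr3 at -0.95 (-1.44 to -0.49) and Cxcr6 at -1.24 (-2.09 to -0.46) in DPBS. In the T cells led by Xcl1, Klra7 and Klrk1, Cxcr6 stood higher in KO after papain, at 0.75 (0.32 to 1.19), unlike in CD4 T cells. After DPBS it was at 0.18 (-0.40 to 0.75) there. It was the 1 member of 6 tested past 1.5-fold higher after papain, and 0 were lower, against 3.43% and 4.78% of all genes.

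ILC2, which should keep Ift20, held Cxcr6 and Ccr8 in every library. Log2 KO over WT of Cxcr6 was 0.64 (0.19 to 1.10) after DPBS and 0.11 (-0.23 to 0.44) after papain, and Ccr8 was at 0.12 (-0.73 to 0.97) in papain. Among members with at least 50 UMIs over the libraries compared, Klf2 had the KO over WT ratios furthest from 0 in ILC2, with 24, 52, 62 and 199 UMIs in the 4 libraries and ratios of 1.28 (0.55 to 2.04) after DPBS and 1.98 (1.56 to 2.41) after papain. However, 35 of the 52 UMIs of DPBS KO and 71 of the 199 UMIs of Papain KO lay in 1 cell each. Without the cell with the most UMIs in each library, the ratios were -0.13 in DPBS and 1.71 in papain. Of the members tested in ILC2, 1 of 4 was past 1.5-fold higher and 1 lower for KO over WT in papain, against 17.1% of all genes in either direction. The lower one was Cxcr4, at -1.06 (-1.88 to -0.28). Mature DC held Ccr7 at near-equal levels, with ratios of 0.26 (0.11 to 0.41) after DPBS and -0.076 (-0.21 to 0.057) after papain. NK cells had Klf2 at -0.17 (-0.32 to -0.033) and -0.39 (-0.53 to -0.24).

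Other genes of homing and egress were taken as a list of 55 adhesion molecules, chemokine receptors, egress regulators, transcription factors and ligands. In WT CD4 T cells, 15 of the 35 with enough UMIs were past 1.5-fold higher after papain than after DPBS and 1 was lower. For KO over WT in papain, 0 of 35 were higher and 13 lower. After DPBS 1 of 29 was higher and 3 were lower in KO, and in KO cells 2 of 29 were higher after papain and 0 lower. The shares of all genes are those given for the members. Of the 14 chemokine receptors on the list, 6 of 8 tested were higher after papain in WT and 6 of 8 lower in KO than in WT after papain. Among them were Ccr6, the receptor for CCL20, at 2.78 (1.95 to 3.73) and Ccr3, the eotaxin receptor, at 2.33 (1.17 to 3.72) for papain over DPBS in WT, and Ccr3 at -1.30 (-2.36 to -0.36) for KO over WT in papain. Ccr9, a receptor of gut homing, was lower after papain in WT, at -1.50 (-1.90 to -1.12), and lower in KO than in WT after DPBS, at -2.17 (-2.79 to -1.60). For KO over WT in DPBS, Ccrl2 was at -0.65 (-1.20 to -0.12), Ccr2 at -0.63 (-1.17 to -0.11) and Cxcl10 at 0.69 (0.32 to 1.06). In KO cells, papain over DPBS was 1.66 (1.18 to 2.17) for Ccr2 and 1.07 (0.55 to 1.61) for Ccrl2. Ccl1, a ligand of CCR8, had 1 UMI in CD4 T cells of DPBS WT, 174 in Papain WT and 3 in Papain KO, which gave 7.09 (4.59 to 12.40) for papain over DPBS in WT and -5.25 (-7.54 to -3.68) for KO over WT in papain. The adhesion, egress and regulator groups had median log2 ratios between -0.18 and 0.16 in all 4 contrasts, but single genes moved further. For papain over DPBS in WT, 3 of 9 adhesion, 3 of 11 egress and 1 of 5 regulator genes tested were past 1.5-fold higher. For KO over WT in papain, 3 of 9, 1 of 11 and 1 of 5 were lower. No gene of these groups was past 1.5-fold in the other contrasts.

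The ligands of the members were highest, by CPM, in a few of the named classes, while other classes held UMIs of them too. Clusters left unnamed were not compared. Over all kept cells there were 18414 UMIs of Ccl17, 7137 of Cxcl16, 7528 of Cxcl10 and 1128 of Cxcl9. Ccl17 and Ccl22, which bind CCR4, were highest in mature DC, Ccl17 at 1972 CPM (WT) and 3265 CPM (KO) after DPBS and 4425 CPM (WT) and 3302 CPM (KO) after papain. Ccl22 stood at 5232 CPM (WT) and 5162 CPM (KO) after DPBS and 4441 CPM (WT) and 4676 CPM (KO) after papain in the same cells. Cxcl16, the ligand of CXCR6, was highest there too, at 960.5 CPM (WT) and 1106 CPM (KO) after DPBS and 959 CPM (WT) and 840.1 CPM (KO) after papain. Mature DC held 468, 434, 2921 and 507 UMIs of Ccl17 and 228, 147, 633 and 129 of Cxcl16. Most UMIs of both genes thus lay elsewhere. In the KO libraries, with 12 and 10 mature DC, 1 cell each held 195 and 224 of the Ccl17 UMIs. For Ccl22, 1 cell each held 259 of 686 and 277 of 718 UMIs there. The CCR8 ligand Ccl1 was highest in ILC2, at 673 CPM (WT) and 854 CPM (KO) after DPBS and 547 CPM (WT) and 799 CPM (KO) after papain, the class that also held the most Ccr8. Cxcl10 was highest in mature DC, at 80.04 CPM (WT) and 0 CPM (KO) after DPBS and 71.2 CPM (WT) and 111 CPM (KO) after papain, where the 0 UMIs of DPBS KO allow up to 22.6 CPM. These levels rest on 19, 0, 47 and 17 UMIs in 5, 0, 7 and 3 cells, few of all Cxcl10 UMIs. Cxcl9 was highest in conventional DC, at 16.3 CPM (WT) and 11.3 CPM (KO) after DPBS and 22.5 CPM (WT) and 8.10 CPM (KO) after papain. That rests on only 9, 7, 28 and 8 UMIs in 2, 4, 5 and 2 cells, so most Cxcl9 UMIs lay elsewhere. Cdh1, which encodes the E-cadherin bound by CD103, reached 33.3 CPM (WT) and 35.4 CPM (KO) after DPBS and 72.5 CPM (WT) and 28.8 CPM (KO) after papain in alveolar macrophages. No UMI of Ccl19 or Ccl21a, the ligands of CCR7, was counted in any kept cell. Cxcl12 had 13 UMIs and Ccl8 24. The sort kept CD45.2-positive cells, so stromal and epithelial sources of these ligands were not measured.

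**Figure D5:**
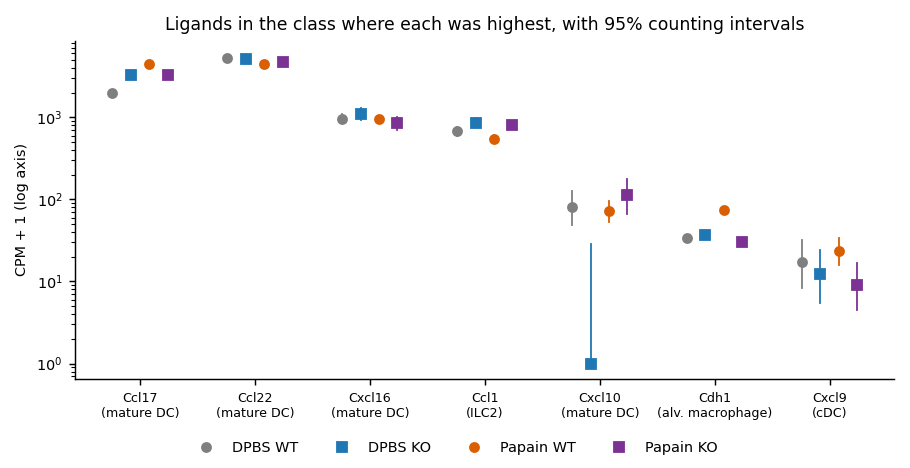
Level of each ligand in the named class where it was highest, as CPM + 1 on a log axis, for the 4 libraries. Ccl17, Ccl22 and Cxcl16 were highest in mature DC and Ccl1 in ILC2.

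The genes most like each member were found by Pearson's correlation of log2(CPM + 10) over 18 profiles of classes and T cell states, each a mean over the libraries, among 11834 genes. The profiles come from the same cells and libraries, so the values are a description. S1pr1 was most like Dtx1 at 0.96, Gm8369 and Cmah at 0.94. Klf2 was most like Grk6 at 0.93, Rasgrp2 at 0.92 and Slc28a2 at 0.90, and Ccr7 most like Rad52 at 0.85, Il21r at 0.84 and Gm26853 at 0.80. Ccr8 had the genes Il17rb at 0.98, Ptpn13 at 0.96 and Il1rl1 at 0.95 nearest to it. Cxcr6 was nearest to Acsbg1 at 0.94, Tnfsf10 at 0.92 and Xlr4a at 0.90, and Ccr4 to Rasl11a at 0.92, 1500009L16Rik at 0.89 and Gm11110 at 0.85. Cxcr3 was nearest to Ifng at 0.83, Trpc1 at 0.80 and Ccdc92 at 0.79. For Cxcr4 the nearest were 5430427O19Rik at 0.91, B430306N03Rik at 0.90 and Dazap2 at 0.89, and for Itgae Rtl8b, Rtl8a and Fads1, each at 0.78. Between members, the highest values were 0.77 for S1pr1 and Klf2, 0.70 for Ccr4 and Ccr8, and 0.67 both for Ccr7 with S1pr1 and for Cxcr6 with Ccr8.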

How the data were processed

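Single-cell RNA libraries of sorted lung immune cells were analysed from the deposited matrices, which give, for each gene and barcode, counts of UMIs from barcodes the authors had called as cells. The headers name software version 3.1.0, and the submitters' processing notes name Cell Ranger and mm10. The annotation, the counting strand and any removal of doublets are not given in the sources used here. Barcodes with more than 200 genes and under 15% mitochondrial UMIs were kept. These limits are stated by the study for another experiment. Scripts ran in Python 3.11.15 with pandas 2.3.3, scipy 1.17.1 and numpy 2.4.6. Scrublet, through scanpy 1.11.5, scored doublets, and the top 0.8% per 1000 barcodes of each library were removed (267 to 557). Its own threshold marked 0.0175% in Papain KO and had not worked there.

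Integration and clustering used Seurat 5.3.0 under R 4.3.3 (30 dimensions of 2000 variable genes, resolution 0.8) and gave 27 clusters. T cells (8789) were clustered again at resolution 1 into 17 sub-clusters. The members, the wider list, Ift20 and antigen receptor segments were kept out of the variable genes. Clusters were named from marker lists by the mean log2 ratio of shares of cells with a UMI, and the rule for naming was set after clusters had been seen. Naive-type names rest on low scores (0.08 to 0.37). T sub-cluster 6 scored best for effector or memory CD4 cells but is called by its number, and CD4 and CD8 cells of mixed sub-clusters were told apart by their Cd4, Cd8a and Cd8b1 UMIs. Differences from the study may come from these rebuilt names.

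UMIs were summed per class and library and given as CPM with exact Poisson intervals. Ratios carry exact conditional binomial intervals. Genes with at least 50 UMIs over both libraries were called past 1.5-fold. The common mix of CD4 T cells weights naive-type, regulatory, dividing, sub-cluster 6 and remaining cells. The weights are their shares of UMIs, not of cells, in DPBS WT. Dividing CD4 cells had a median of 31412 UMIs in DPBS WT and naive-type CD4 cells 5309. Dividing cells therefore weigh more than their share of cells. Steps were tested on simulated data. TMM factors came from edgeR 4.0.16. The members and lists were chosen with earlier results of these data known. Named were the 9 members, up to 3 genes of the wider list per contrast and direction with the largest ratios (1 of them is not reported here), the ligands in their highest class, and the 3 genes most like each member. Samples were grouped by genotype and treatment labels.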

Additional observations from a re-analysis of the deposited data

Results flagged for a closer look

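In rare T cell states, the direction of a difference turned between the groups for both values below, each from few cells, and whether the groups differ was not tested. In type 17 CD4 T cells, of which there were 7 (WT) and 3 (KO) after DPBS and 47 (WT) and 26 (KO) after papain, log2 papain over DPBS for Klf2 was -1.10 in WT and 0.86 in KO, a difference of 1.96.

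In dividing CD8 T cells, numbering 6, 8, 14 and 14 in the same order, log2 KO over WT for Ccr7 was 0.61 in DPBS and -1.55 in papain, a difference of -2.16. Read across treatments, papain over DPBS was 1.34 in WT and -0.82 in KO, which gives the same -2.16 because both readings use the same 4 values.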

How the results depend on the processing

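No paired analysis was possible because each group holds 1 library. For the same reason no library could be left out. The levels of the members and their log2 ratios were recomputed with each choice changed in turn. Over 110 ratios, a stricter barcode filter left all 110 within their counting intervals, clustering without integration 109, keeping called doublets 107, leaving out the cell with the most UMIs 106, TMM factors 96, a mean of per-cell CPM 87 and gating cells on their own transcripts 80. Over the 62 ratios of CD4 and CD8 T cells, leaving out dividing T cells left 54 within them and the DPBS WT mix of states 37. Of the ratios past 1.5-fold, 2 reversed. Cxcr3 in CD4 T cells, KO over WT in DPBS, went from -0.92 to 0.11 without dividing T cells. Klf2 in ILC2, KO over WT in DPBS, went from 1.28 to -0.13 without the top cell and to -0.33 with transcript gates. Cxcr3 in CD4 T cells, within 1.5-fold in the pooled papain comparisons, went at the common mix from -0.42 to 0.87 for KO over WT and from 0.058 to -0.73 for papain over DPBS in WT. The cause was not tested beyond this.

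Counts of members past 1.5-fold moved as follows. In CD4 T cells, KO over WT in DPBS, 3 became 1 at the common mix and 1 with a limit of 2-fold, and papain over DPBS in KO went from 3 to 1 with a mean of per-cell CPM and 1 at the common mix. In CD8 T cells, KO over WT in DPBS went from 1 to 2 at the common mix and 0 at 2-fold, and KO over WT in papain from 0 to 1 with a mean of per-cell CPM. Papain over DPBS in WT went from 1 to 0 with TMM factors, at the common mix and at 2-fold, and to 2 with per-cell means and with transcript gates. In KO it went from 1 to 2 with per-cell means and to 0 without dividing cells and at 2-fold. The counts for CD4 T cells after papain, KO over WT, and for papain over DPBS in WT stayed within 1.5 times under the alternatives run. Depth limits Ccr8 and Ccr4, with few UMIs outside CD4 T cells and ILC2.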
